A study of Mus musculus with 30 samples.

Results

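The genes described here are 31 genes of fatty acid and triglyceride synthesis, chosen by symbol from a list of the pathway and found among the 17990 genes counted in mouse liver. All 31 were present. They cover the supply of acetyl-CoA and reducing power (Acly, Acss2, Slc25a1, Me1, Pklr), the carboxylation and condensation steps (Acaca, Acacb, Fasn), elongation (Elovl1, Elovl2, Elovl3, Elovl5, Elovl6) and desaturation (Scd1, Scd2, Fads1, Fads2). The rest activate fatty acids (Acsl3, Acsl5), assemble or remodel glycerolipids (Gpam, Agpat2, Lpin1, Lpin2, Dgat1, Dgat2, Mogat1, Pnpla3) or regulate the pathway (Srebf1, Mlxipl, Thrsp, Insig2).

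RNA was sequenced from livers of ICR mice, an outbred stock, at 10 weeks of age, in 30 libraries that form 10 groups of 3. Dams drank water with 2,4-BPS, BPSIP, BPS or E2 at an intended 5 µg/kg body weight daily, from the start of pregnancy until the pups were weaned, about 40 days. Control dams received the same share of ethanol solvent (0.001%). Each exposure and the control gave a group of daughters and a group of sons. Exposure ended at weaning. As described, each library came from a single liver, with animals drawn from litters of different dams. The libraries labelled male control go against this, as they held Y-linked and female-specific transcripts together (values below). BPS (bisphenol S) is a pair of phenol rings joined by a sulfone and replaces bisphenol A in thermal paper and plastics. 2,4-BPS is its positional isomer, with a hydroxyl group moved to the ortho position of a ring, and BPSIP carries an isopropyl ether in place of a hydroxyl group. E2 is estradiol, the reference estrogen. The labels state the purpose as a comparison of exposed with unexposed offspring.

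De novo lipogenesis turns carbohydrate carbon into fat. Citrate leaves the mitochondrion, ATP citrate lyase splits it into acetyl-CoA, acetyl-CoA carboxylase makes malonyl-CoA and fatty acid synthase builds palmitate, which elongases and desaturases modify and the glycerol phosphate pathway turns into triglyceride. In liver the pathway is high after feeding and low in fasting: insulin acts largely through SREBP-1c, a product of Srebf1, and glucose through ChREBP, the product of Mlxipl. Many of its transcripts also follow the time of day.

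Promoters are shown for the 6 members with the widest range of group means in daughters among those with a window, which are the genes the results turn on. The sequences are RefSeq's on GRCm38.p6, 250 bases before to 50 after a transcription start, and the authors' own genome build is not given in the sources used here. Capitals mark CCAAT on either strand (CCAAT or ATTGG), the letters bound by NF-Y, a factor that acts beside SREBP at lipogenic promoters. Promoter windows were found for 25 of the 31 members, 37 windows in all.
Fasn, fatty acid synthase, chr11:120824498-120824797, minus strand: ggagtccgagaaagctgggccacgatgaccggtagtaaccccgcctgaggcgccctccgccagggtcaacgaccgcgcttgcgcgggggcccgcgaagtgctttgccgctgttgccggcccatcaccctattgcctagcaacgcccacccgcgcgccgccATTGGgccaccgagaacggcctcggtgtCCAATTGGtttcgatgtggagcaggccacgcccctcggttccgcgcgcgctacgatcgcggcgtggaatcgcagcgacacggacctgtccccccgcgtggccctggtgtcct
Thrsp, the Spot 14 protein, chr7:97417501-97417800, minus strand: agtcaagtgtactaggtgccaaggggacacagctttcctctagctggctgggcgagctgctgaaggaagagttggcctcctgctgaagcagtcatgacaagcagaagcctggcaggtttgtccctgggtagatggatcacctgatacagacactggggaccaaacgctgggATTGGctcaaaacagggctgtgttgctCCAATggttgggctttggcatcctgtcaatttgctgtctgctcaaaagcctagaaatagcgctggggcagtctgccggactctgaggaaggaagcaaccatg
Srebf1, furthest upstream of its 3 windows, chr11:60222532-60222831, minus strand: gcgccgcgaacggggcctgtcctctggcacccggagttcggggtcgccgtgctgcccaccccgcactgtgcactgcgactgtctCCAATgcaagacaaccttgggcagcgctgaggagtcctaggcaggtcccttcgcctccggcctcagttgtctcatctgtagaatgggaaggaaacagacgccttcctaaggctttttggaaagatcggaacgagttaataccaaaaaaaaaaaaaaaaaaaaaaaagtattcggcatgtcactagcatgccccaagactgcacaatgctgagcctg
Pnpla3, a patatin-like lipase and acyltransferase, chr15:84167566-84167865, plus strand: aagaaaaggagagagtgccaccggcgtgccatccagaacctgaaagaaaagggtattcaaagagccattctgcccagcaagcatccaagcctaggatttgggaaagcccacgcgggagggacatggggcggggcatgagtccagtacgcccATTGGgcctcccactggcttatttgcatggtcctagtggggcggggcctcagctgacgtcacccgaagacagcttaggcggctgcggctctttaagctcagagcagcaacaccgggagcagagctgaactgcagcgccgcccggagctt
Lpin1, a phosphatidate phosphatase, chr12:16610917-16611216, minus strand: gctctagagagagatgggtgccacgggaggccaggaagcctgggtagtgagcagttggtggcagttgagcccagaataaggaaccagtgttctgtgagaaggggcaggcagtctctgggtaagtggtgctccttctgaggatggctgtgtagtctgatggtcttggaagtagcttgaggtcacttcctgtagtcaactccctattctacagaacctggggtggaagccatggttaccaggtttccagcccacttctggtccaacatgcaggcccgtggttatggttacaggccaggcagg
Elovl6, the elongase of palmitate, chr3:129532136-129532435, plus strand: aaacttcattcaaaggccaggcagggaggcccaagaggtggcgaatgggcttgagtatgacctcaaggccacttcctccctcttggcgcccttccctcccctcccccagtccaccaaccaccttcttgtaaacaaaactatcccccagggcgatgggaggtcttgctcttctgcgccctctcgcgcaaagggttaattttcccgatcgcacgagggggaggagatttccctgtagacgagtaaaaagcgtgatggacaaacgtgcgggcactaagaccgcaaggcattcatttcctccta

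CCAAT stood in 54.1% of the members' windows, in 19 genes, against 37.4% of all 32851 windows in the table. The Fasn window holds 3 matches, and those at -62 and -59 from the start overlap on opposite strands. Thrsp has matches at -79 and -52 and Pnpla3 a match at -99, and the Lpin1 and Elovl6 windows hold none. Srebf1 has a match at -166 in the window shown. Its window furthest downstream (chr11:60210422-60210721), not shown, has a match at -30. Which of its 3 windows starts the SREBP-1c transcript was not determined here. An E-box (CACGTG) was in 10.8% of the members' windows and 7.15% of all windows. The sterol response element searched (TCACNCCAC, both strands) was in 1 member window, of Mlxipl, and in 1.24% of all windows. The consensus estrogen response element was in none of the members' 37 windows and in 0.07% of all. These are matches of letters within the windows and no more.

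Libraries held 29711711 to 37719069 counts. Levels are CPM, read counts scaled to library size with TMM factors. Values in brackets after a gene are log2 fold changes from edgeR's quasi-likelihood fit ± standard error (SE). The SE was derived from the test, as the absolute log2 fold change divided by the square root of its F statistic. A gene passed where its p, adjusted by Benjamini and Hochberg over all genes tested, was under 0.05. Hepatocyte markers (Alb, Apoa1, Ttr, Serpina1c, Cps1) had counts in every group and summed to 57070 to 127800 CPM. The 6 adipocyte markers summed to 9.16 to 21.1 CPM in all groups, and 1 of the 6 had no counts in the female E2 group. The 3 libraries labelled male control held 84.7 to 95.3 CPM of 4 Y-linked genes, where exposed males held 131.1 to 168.8 CPM. They also held 2551 to 2923 CPM of 6 female-specific liver genes, where exposed males held 2.04 to 10.4 CPM and female controls 4710 to 4902 CPM. They went against their label, so they enter no test here, and exposed males were compared with each other. In whole liver, fewer cells of a type and less RNA per cell cannot be told apart.

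Deposited FPKM divide by 1 fixed length for each gene, from 1102 bases for Thrsp to 22389 for Lpin2, and the order of genes depends on it. In female controls Thrsp was the highest of the 31 (640.0 ± 3.99 FPKM, SD, n = 3), followed by Scd1 (479 ± 1.94), Fads2 (316 ± 3.82) and Dgat2 (262 ± 3.20). Fasn itself stood at 23.1 ± 0.743 FPKM and Acaca at 8.47 ± 0.387 FPKM. Elovl5 and Elovl2, neighbours in this order at 225 ± 0.568 and 219.8 ± 4.33 FPKM, differed by about their spread. The lowest were Pnpla3 (0.629 ± 0.181 FPKM) and Mogat1 (0.442 ± 0.154 FPKM). Mogat1, which acylates monoacylglycerol, was the member left out of the male tests by the filter on low counts. Its libraries ranged from 0.108 to 0.773 CPM in females and from 0 to 0.72 CPM in exposed males.

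**Figure D1:**
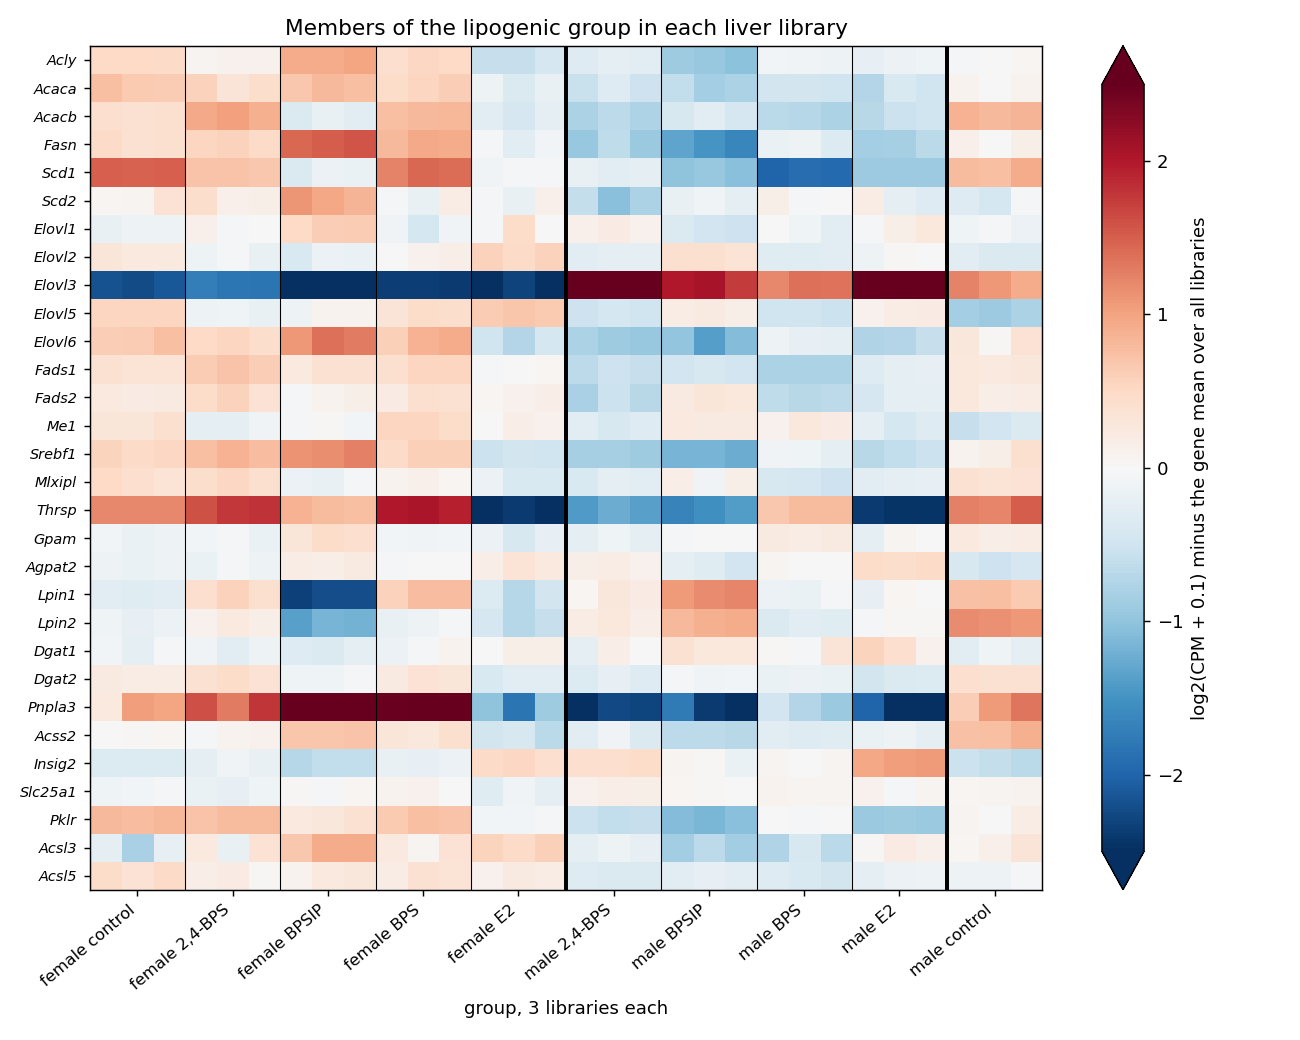
Level of 30 members (rows, without Mogat1) in each of 30 libraries (columns, 3 per group), as log2(CPM + 0.1) minus the gene's mean over all libraries, with red above and blue below that mean. Elovl3 separates the sexes, Pnpla3 and Fasn are highest in the female BPSIP libraries, Lpin1 is lowest there, and Thrsp is lowest in the E2 libraries of both sexes.

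In daughters, E2 went with a broad fall of the pathway, BPSIP split it, BPS raised a few members and 2,4-BPS moved members both ways. With E2, 5 of 31 members rose and 18 fell, where 10.4% and 10.6% of 13874 genes tested rose and fell. The members' median log2 fold change was -0.36, against -0.01 over all genes. With BPSIP 11 rose and 15 fell (all genes 19.4% and 19.2%), with medians of -0.20 and -0.01. With BPS 10 rose and 2 fell (all genes 9.32% and 7.50%), with medians of 0.10 and -0.01. With 2,4-BPS 12 rose and 7 fell (all genes 10.9% and 8.42%), with medians of 0.04 and 0.00. These 4 comparisons share the 3 control libraries. Of 6 macrophage markers, 6 rose with 2,4-BPS, 5 rose with BPSIP, 3 fell with BPS and 4 fell with E2, with sums of 1061 to 1132, 1080 to 1239, 694.3 to 768.2 and 687.8 to 700.8 CPM against 769.7 to 807.8 CPM in controls, and none was at 0 in any of these groups. Of 4 skeletal muscle markers 3 rose with 2,4-BPS, to a sum of 5.20 to 27.1 CPM from 1.20 to 5.10 CPM. Their part in the members' changes was not tested. Passing under every alternative tried were 21 members with E2, 25 with BPSIP, 8 with BPS and 16 with 2,4-BPS, a count that was not made over all genes.

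**Figure D2:**
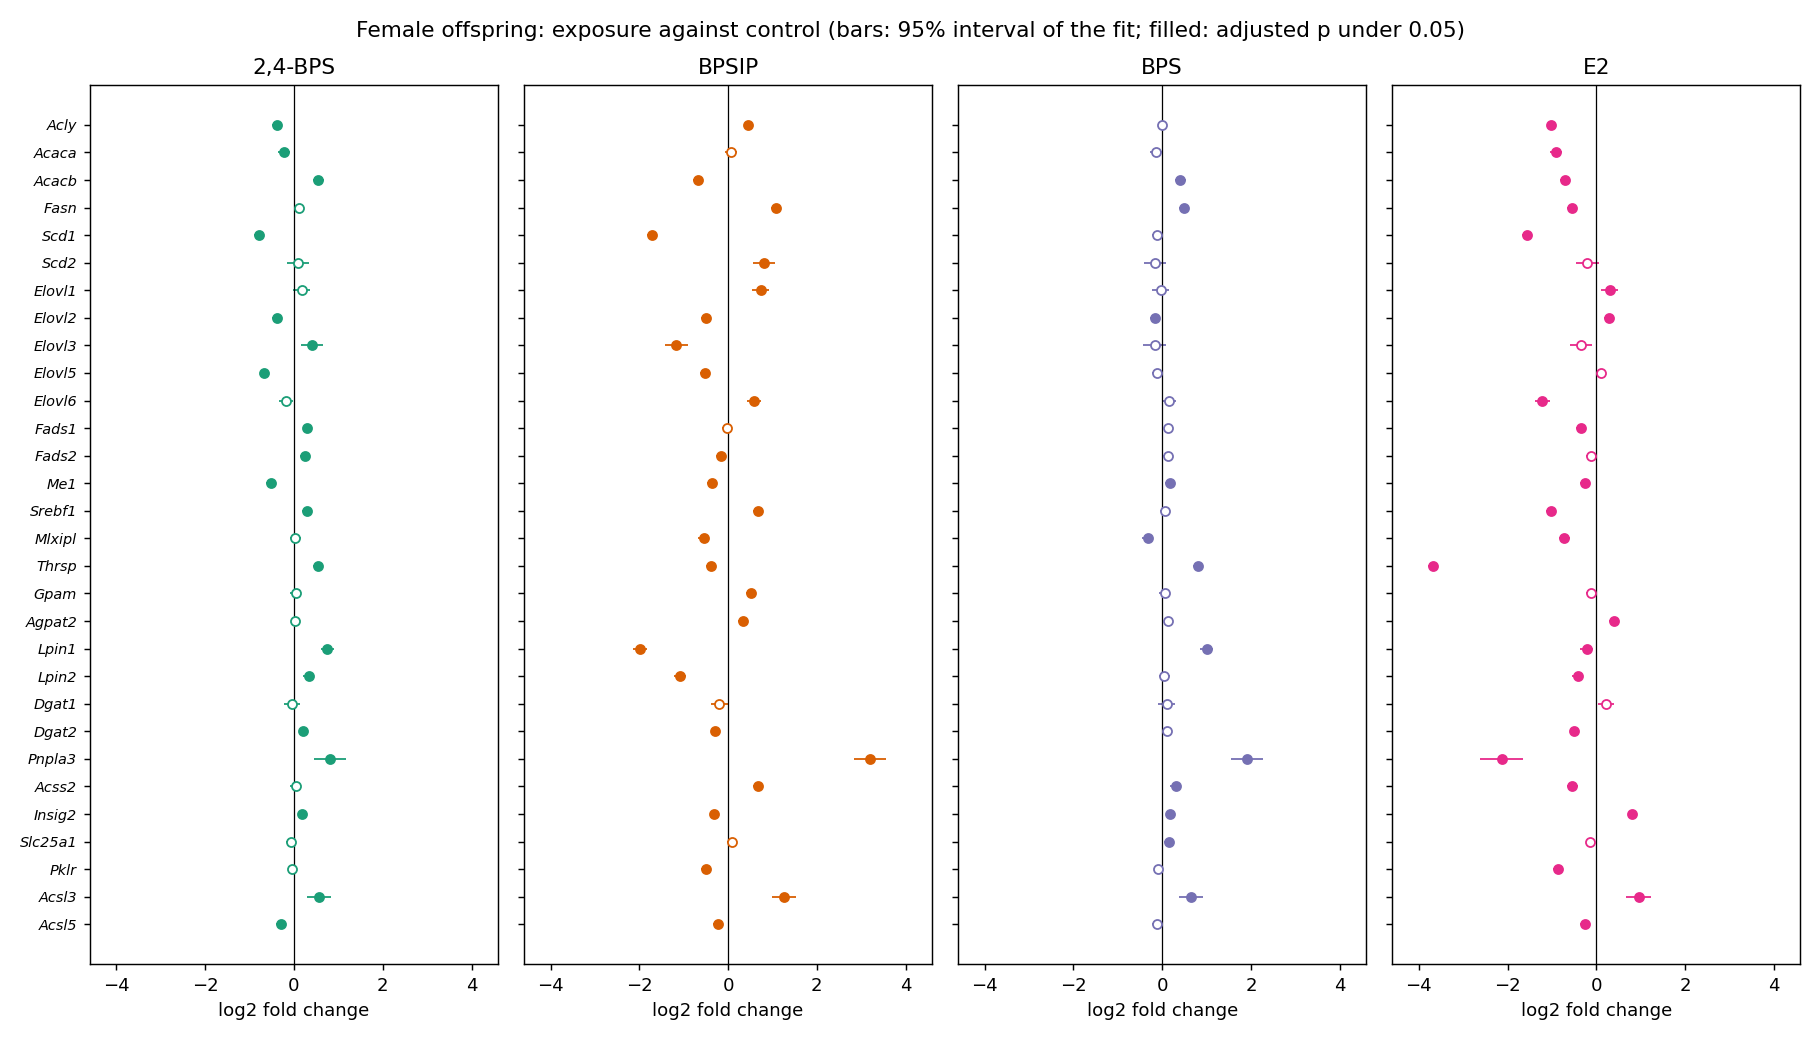
Log2 fold change of 30 members (without Mogat1) in daughters of exposed against control dams, with bars for the 95% interval of the fit and filled points where the adjusted p was under 0.05. E2 points lie mostly left of 0, with Thrsp at -3.68, while BPSIP has Pnpla3 at 3.20 and Lpin1 at -1.98.

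Among the regulators, Srebf1 encodes SREBP-1, the transcription factor that carries the insulin signal to lipogenic promoters. It stood at 122, 116 and 119.8 CPM in female controls, 183, 188 and 201 with BPSIP and 141, 152 and 142 with 2,4-BPS. BPS libraries held 116, 125 and 126 CPM and E2 libraries 57.3, 60.9 and 59.1 CPM. BPSIP and 2,4-BPS lay above every control library and E2 below, while BPS overlapped the controls. Srebf1 rose with BPSIP (0.67 ± 0.05) and 2,4-BPS (0.29 ± 0.05) and fell with E2 (-1.02 ± 0.06). In sons the order was another: 78.6, 77.5 and 71.8 CPM with BPS, 51.6, 54.5 and 57.6 with E2, 46.9, 47.1 and 45.3 with 2,4-BPS and 37.3, 37.2 and 35.3 with BPSIP, with no overlap between any of the 4. Srebf1 was lower with BPSIP than with BPS in sons (-1.04 ± 0.06) and higher in daughters (0.62 ± 0.05), and the sexes differed in that contrast (1.69 ± 0.08).

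Thrsp, a small lipogenic protein that follows thyroid hormone, carbohydrate and the clock, made the largest fall with E2 among the 31. Female controls held 671, 670.4 and 672 CPM and E2 daughters 52.1, 55.5 and 49.8 CPM. BPS daughters held 1168, 1203 and 1123 CPM, 2,4-BPS daughters 881, 997 and 1022 CPM and BPSIP daughters 537, 506 and 490.5 CPM. No exposed group overlapped the controls. It fell with E2 (-3.68 ± 0.06, 12.8-fold lower) and less with BPSIP (-0.39 ± 0.06), and rose with BPS (0.80 ± 0.06) and 2,4-BPS (0.53 ± 0.06). In sons BPS stood apart at 468, 510.4 and 505 CPM, above 110.1, 125 and 114 with 2,4-BPS, 91.5, 101 and 112 with BPSIP and 55.4, 53.2 and 53.7 with E2. E2 minus BPS was -3.17 ± 0.06 in sons, and the E2 libraries of the sexes overlapped in level.

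Mlxipl encodes ChREBP, the glucose-responsive partner of SREBP-1. Its libraries held 143, 135 and 128 CPM in female controls, 136, 144 and 133 with 2,4-BPS, 91.3, 88.6 and 97.8 with BPSIP, 107, 109.6 and 105 with BPS and 91.1, 77.4 and 77.2 with E2. It fell with E2 (-0.73 ± 0.06), BPSIP (-0.55 ± 0.06) and BPS (-0.33 ± 0.06), and 2,4-BPS overlapped the controls (0.03, 95% interval -0.09 to 0.15). In BPSIP daughters the transcripts of the regulators Srebf1 and Mlxipl moved in opposite directions. In sons Mlxipl was 112, 94.2 and 111 CPM with BPSIP, above 76.6, 75.1 and 70.6 with BPS (0.53 ± 0.06), with 76.9, 85.2 and 83.2 for 2,4-BPS and 82.4, 85.2 and 86.7 for E2 between them.

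Insig2 holds the SREBP and SCAP complex in the endoplasmic reticulum and so restrains it. Its levels were 258, 257 and 257 CPM in female controls and 453, 466 and 439.8 with E2, the female group that stood highest. They were 282, 306 and 288 with 2,4-BPS, 288, 282 and 293 with BPS and 198, 213 and 212 with BPSIP, the lowest. Insig2 rose with E2 (0.81 ± 0.05) and fell with BPSIP (-0.31 ± 0.05), each the reverse of Srebf1. With 2,4-BPS both genes rose, though the Insig2 call was lost without 2,4-BPS replicate 2 (adjusted p = 0.0653). Sons showed E2 highest as well, at 636, 674 and 684 CPM, then 2,4-BPS at 439, 437 and 447. BPS sons held 344, 327 and 345 CPM and BPSIP sons 344, 333 and 291 CPM, which overlapped. Among exposed sons BPSIP had the lowest mean of Insig2 and also of Srebf1 (323 and 36.6 CPM). Both genes had higher means with E2 (665 and 54.6 CPM) and 2,4-BPS (441 and 46.4 CPM) than with BPSIP. Against BPS sons (339 and 76.0 CPM), E2 and 2,4-BPS sons had Insig2 higher and Srebf1 lower. For Insig2, E2 against BPSIP gave 1.12 ± 0.05 in daughters and 1.05 ± 0.05 in sons, and the difference between the sexes was not detected (0.05, 95% interval -0.09 to 0.20).

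Acly, ATP citrate lyase, supplies cytosolic acetyl-CoA. Female controls held 234, 231 and 228 CPM, BPSIP daughters 311, 313 and 327 and BPS daughters 219, 236 and 232. 2,4-BPS daughters held 173, 177 and 176 CPM and E2 daughters 111, 111 and 122 CPM. Acly was above all controls with BPSIP (0.46 ± 0.05) and below them with 2,4-BPS (-0.39 ± 0.05) and E2 (-1.01 ± 0.05). Sons reversed this for BPSIP, their lowest group at 89.4, 85.2 and 81.0 CPM, beside 157, 155 and 149.8 with BPS, 143, 148 and 153 with E2 and 131, 138 and 135 with 2,4-BPS. The other source of acetyl-CoA, acetate through Acss2, rose in daughters with BPSIP (0.67 ± 0.06) and BPS (0.30 ± 0.06), fell with E2 (-0.54 ± 0.06) and did not pass with 2,4-BPS (0.04, 95% interval -0.08 to 0.16), where Acly fell. It was lower in BPSIP than in BPS sons (-0.35 ± 0.06). Slc25a1, the citrate carrier of the mitochondrion, moved least of the supply genes, with group means from 144 to 184 CPM over the 9 groups apart from male control.

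Pklr, liver pyruvate kinase and a ChREBP target, held 219, 214 and 223 CPM in female controls, 205, 215 and 215 with 2,4-BPS and 195, 210.3 and 203 with BPS. It was lower at 148, 152 and 161 CPM with BPSIP (-0.51 ± 0.05) and 119, 119.5 and 121 CPM with E2 (-0.87 ± 0.05). In sons Pklr ran from 124, 119.9 and 125 CPM with BPS through 86.0, 81.4 and 83.4 with 2,4-BPS and 65.9, 67.3 and 65.2 with E2 to 59.1, 56.2 and 60.1 with BPSIP. These male groups did not overlap, and BPSIP minus BPS was -1.06 ± 0.05. Me1, the malic enzyme that makes NADPH, fell in daughters with 2,4-BPS (-0.52 ± 0.06), BPSIP (-0.37 ± 0.06) and E2 (-0.25 ± 0.06).

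Fasn builds palmitate from malonyl-CoA. It stood at 238, 222 and 227 CPM in female controls and at 459.7, 488 and 506 CPM with BPSIP, with 300.3, 329.7 and 327 for BPS. 2,4-BPS libraries held 247, 253 and 236 CPM, partly among the controls, and E2 libraries 164, 142 and 162 CPM, all below. Fasn rose with BPSIP (1.08 ± 0.06, 2.11-fold) and BPS (0.49 ± 0.06) and fell with E2 (-0.56 ± 0.06). Among sons BPS was highest at 152, 156 and 134 CPM and BPSIP lowest at 68.3, 61.3 and 54.9 CPM. The 2,4-BPS sons held 87.9, 110.3 and 89.5 CPM and E2 sons 94.9, 96.4 and 106 CPM, which overlapped (0.06, 95% interval -0.14 to 0.26, E2 minus 2,4-BPS). BPSIP minus BPS was therefore 0.59 ± 0.06 in daughters and -1.25 ± 0.10 in sons.

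Acaca, the cytosolic acetyl-CoA carboxylase that feeds Fasn, changed less. Its levels were 88.1, 81.7 and 80.8 CPM in female controls, 83.1, 91.4 and 87.8 with BPSIP, 71.2, 75.1 and 79.7 with BPS, 77.5, 65.4 and 70.5 with 2,4-BPS and 47.4, 40.3 and 45.6 with E2. E2 libraries were lowest (-0.91 ± 0.07). The 2,4-BPS libraries were also below the controls (-0.23 ± 0.07), a call lost without 2,4-BPS replicate 2 (adjusted p = 0.104) or control replicate 1 (0.101). With BPSIP, where Fasn rose, Acaca did not pass (0.06, 95% interval -0.07 to 0.20). Sons held 35.2, 41.5 and 36.1 CPM with 2,4-BPS, 33.9, 28.9 and 29.97 with BPSIP, 37.9, 38.1 and 36.8 with BPS and 31.2, 40.0 and 36.8 with E2. Acacb, whose malonyl-CoA at the mitochondrial surface blocks fatty acid oxidation, rose with 2,4-BPS (0.55 ± 0.06) and BPS (0.41 ± 0.06) and fell with BPSIP (-0.68 ± 0.06) and E2 (-0.71 ± 0.06) in daughters.

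Scd1, the stearoyl-CoA desaturase that makes oleate, fell in daughters with 3 of the 4 exposures. Controls held 2217, 2187 and 2204 CPM, against 613, 711 and 702 with BPSIP, 735, 762 and 754 with E2 and 1281, 1287 and 1257 with 2,4-BPS. BPS daughters, at 1847, 2124 and 2051 CPM, lay below the controls but did not pass (-0.12, 95% interval -0.23 to -0.01). The falls were 3.27-fold with BPSIP (-1.71 ± 0.06), 2.94-fold with E2 (-1.56 ± 0.06) and 1.72-fold with 2,4-BPS (-0.78 ± 0.06). Fasn and Scd1 thus moved in opposite directions in BPSIP daughters. In sons BPS was the lowest group at 195, 209.7 and 204 CPM, and 2,4-BPS the highest at 689, 649 and 662 CPM. BPSIP sons held 390.4, 408 and 378 CPM and E2 sons 418, 420.1 and 418 CPM. Scd2, a related desaturase at far lower level, rose with BPSIP in daughters (0.82 ± 0.13) and was lower with 2,4-BPS than with BPS in sons (-0.84 ± 0.16).

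Fads1 and Fads2 introduce double bonds into polyunsaturated fatty acids. In daughters Fads1 rose with 2,4-BPS (0.30 ± 0.05) and fell with E2 (-0.36 ± 0.05), and Fads2 rose with 2,4-BPS (0.25 ± 0.06). Group means of Fads2 ran from 785 ± 56.8 to 1036 ± 79.4 CPM (SD, n = 3) in daughters. In sons BPSIP stood out for Fads2, at 898 ± 29.7 CPM against 474 ± 11.7 with BPS (0.94 ± 0.05).

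Elovl6 lengthens palmitate to stearate and is a SREBP-1c target. Female controls held 61.4, 62.3 and 67.9 CPM, BPSIP daughters 85.5, 104 and 99.2, BPS daughters 60.9, 73.8 and 76.3, 2,4-BPS daughters 56.5, 58.2 and 54.1 and E2 daughters 28.5, 24.1 and 29.6. It rose with BPSIP (0.59 ± 0.08) and fell with E2 (-1.22 ± 0.09), as Srebf1 did. With 2,4-BPS its libraries lay below every control but did not pass (-0.18, 95% interval -0.34 to -0.01), where Srebf1 rose. In sons BPS was above the rest at 36.9, 34.8 and 34.0 CPM, with 23.8, 24.2 and 27.0 for E2, 23.1, 21.7 and 20.7 for 2,4-BPS and 20.2, 15.5 and 18.8 for BPSIP.

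Elovl3, which makes very long chain fatty acids and is known for higher expression in male mouse liver, was the member most divided by sex. Daughters held 9.09, 8.71 and 9.48 CPM as controls, 12.5, 11.8 and 11.6 with 2,4-BPS, 4.70, 3.63 and 3.83 with BPSIP, 8.05, 8.10 and 7.88 with BPS and 6.79, 8.26 and 6.47 with E2. The fall with BPSIP (-1.16 ± 0.14) passed under every alternative. Sons held 534, 530.1 and 548 CPM with 2,4-BPS and 715, 779 and 761 CPM with E2, above 167, 174 and 141 CPM with BPSIP and 96.1, 108 and 107 CPM with BPS. In sons E2 exceeded BPS 7.37-fold (2.88 ± 0.06) and 2,4-BPS exceeded BPS 5.23-fold (2.39 ± 0.06). The summed level of 5 male-specific liver genes, Elovl3 among them, was 4503 to 4642 CPM in 2,4-BPS sons, 4048 to 4144 with BPS, 3597 to 3790 with BPSIP and 3657 to 3894 with E2.

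The remaining elongases act on longer chains. Elovl5 and Elovl2, for polyunsaturated chains, both fell in daughters with 2,4-BPS (-0.67 ± 0.05 and -0.38 ± 0.06) and with BPSIP (-0.53 ± 0.05 and -0.50 ± 0.06). In sons both were higher with BPSIP than with BPS (0.71 ± 0.04 and 0.69 ± 0.04). Elovl1, for saturated very long chains, rose with BPSIP in daughters (0.73 ± 0.10) and was lower with BPSIP than with BPS in sons (-0.31 ± 0.08). Acsl3, an acyl-CoA synthetase of lipid droplets, rose in daughters with BPSIP (1.26 ± 0.14), E2 (0.95 ± 0.14), BPS (0.64 ± 0.14) and 2,4-BPS (0.57 ± 0.14).

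**Figure D3:**
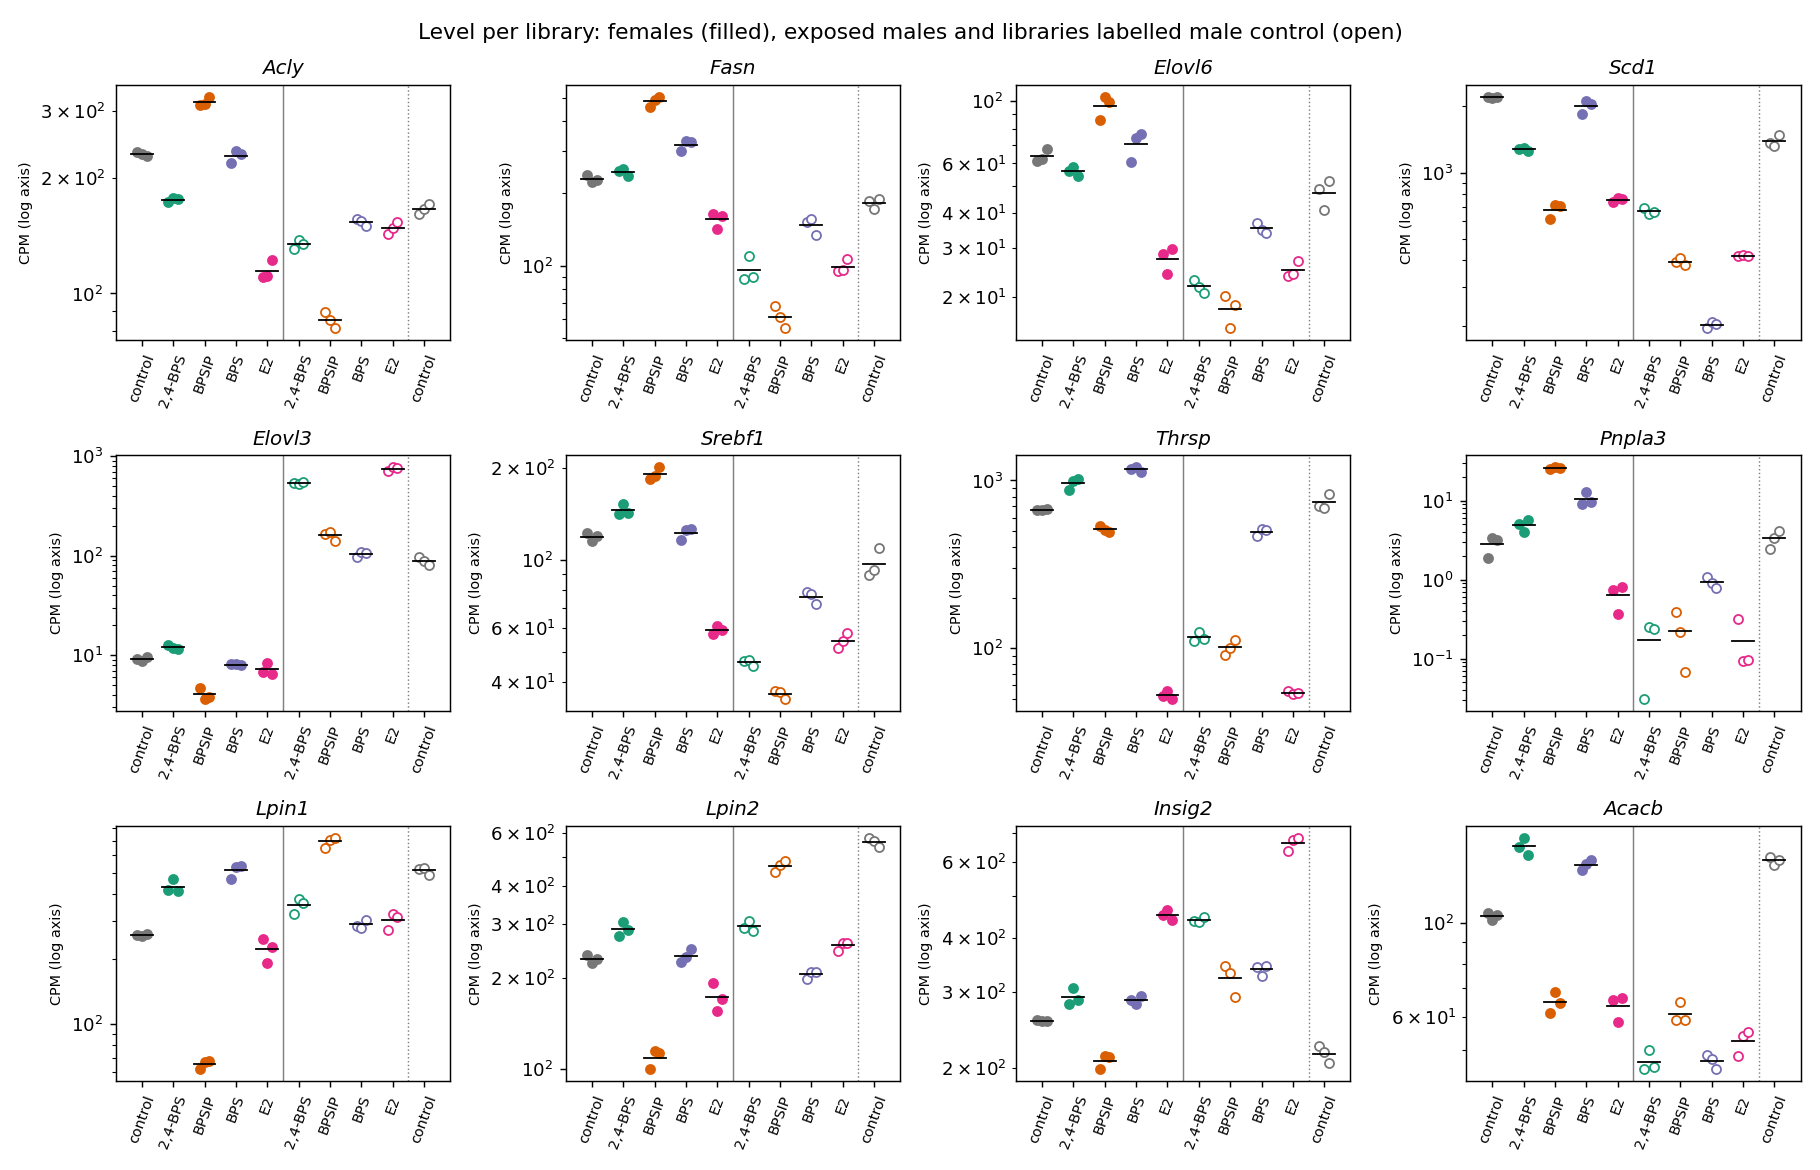
Level of 12 members in each library, in CPM on log axes that differ between panels, with females filled, males open and short lines at group means of 3. BPSIP is the highest female group and the lowest exposed male group for Acly, Fasn, Elovl6 and Srebf1, and the lowest female and highest exposed male group for Lpin1 and Lpin2.

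The lipins of glycerolipid assembly are phosphatidate phosphatases that make diacylglycerol. Lpin1 stood at 258, 255 and 259 CPM in female controls and at 61.8, 67.0 and 67.4 CPM with BPSIP. BPS daughters held 468, 533 and 534 CPM, 2,4-BPS daughters 416, 467 and 411 CPM and E2 daughters 247, 191 and 227 CPM. BPSIP lay below and BPS and 2,4-BPS above every control library. E2 libraries were below the controls too (-0.22 ± 0.07), but that call was lost without any of the 3 control libraries (adjusted p from 0.0741 to 0.0916) or without E2 replicate 2 (0.184) or 3 (0.0605). Lpin1 fell 3.95-fold with BPSIP (-1.98 ± 0.08) and rose with BPS (1.00 ± 0.07) and 2,4-BPS (0.75 ± 0.07). In sons BPSIP was instead the highest group at 652, 710.2 and 726 CPM. The others held 324, 379 and 362 CPM with 2,4-BPS, 272, 323 and 311 with E2 and 283, 279 and 303 with BPS. BPSIP minus BPS was -2.98 ± 0.08 in daughters and 1.29 ± 0.06 in sons.

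Lpin2, the other member of this family here, also fell with BPSIP. Its levels were 238, 223 and 230.4 CPM in female controls, 99.7, 115 and 113 with BPSIP, 192, 155 and 171 with E2, 225, 234 and 249 with BPS and 275, 304 and 287 with 2,4-BPS. It fell with BPSIP (-1.08 ± 0.07) and E2 (-0.42 ± 0.07) and rose with 2,4-BPS (0.33 ± 0.06). In sons BPSIP was again the highest group at 446, 472 and 485 CPM, against 291, 308 and 286 with 2,4-BPS, 246, 261 and 261 with E2 and 198, 209 and 208 with BPS (1.20 ± 0.05, BPSIP minus BPS). The 10 genes of the fasting response list (among them Igfbp1, Angptl4 and Pck1) summed to 4969 to 5213 CPM in BPSIP daughters and 9184 to 9435 CPM in female controls. In sons the same sum was 12020 to 12480 CPM with BPSIP and 8460 to 8956 CPM with BPS. All 10 of these genes fell in BPSIP daughters, and their part in the lipin result was not tested.

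Gpam starts glycerolipid synthesis by acylating glycerol phosphate. It held 149, 140.1 and 142 CPM in female controls, 150.1, 151 and 139 with 2,4-BPS, 148, 148 and 148 with BPS and 142, 119 and 136 with E2. BPSIP daughters lay above them at 192, 215 and 209 CPM (0.51 ± 0.06). In sons it was 183, 177 and 182 CPM with BPS, 153, 156 and 155 with BPSIP, 133, 165 and 158 with E2 and 133, 145 and 133 with 2,4-BPS. Agpat2, the next acyltransferase, rose in daughters with E2 (0.39 ± 0.05) and BPSIP (0.33 ± 0.05).

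Dgat2 and Dgat1 add the last acyl chain of triglyceride. Dgat2 held 568, 557 and 556 CPM in female controls, 636, 669.6 and 628 with 2,4-BPS, 571, 631 and 606 with BPS, 451, 453 and 474 with BPSIP and 376, 409 and 405 with E2. It fell with E2 (-0.50 ± 0.05) and BPSIP (-0.29 ± 0.05) and rose slightly with 2,4-BPS (0.21 ± 0.05). In sons it held 478, 458 and 468 CPM with BPSIP, 439, 441 and 433 with BPS, 386, 424 and 392 with 2,4-BPS and 357, 383 and 387 with E2. Dgat1 passed in no female comparison with control; its widest change was with E2 (0.22, 95% interval 0.03 to 0.41).

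Pnpla3, a lipid droplet protein under SREBP-1c control, had the widest range of all in daughters. Controls held 1.89, 3.33 and 3.20 CPM, BPSIP daughters 24.8, 26.6 and 26.2, BPS daughters 9.16, 12.7 and 9.69, 2,4-BPS daughters 5.01, 4.03 and 5.66 and E2 daughters 0.731, 0.369 and 0.808. No exposed group overlapped the controls. It rose 9.18-fold with BPSIP (3.20 ± 0.18), 3.76-fold with BPS (1.91 ± 0.18) and 1.75-fold with 2,4-BPS (0.81 ± 0.19), and fell 4.38-fold with E2 (-2.13 ± 0.25). In sons it was near the limit of counting: 1.10, 0.908 and 0.78 CPM with BPS, 0.394, 0.219 and 0.0679 with BPSIP, 0.031, 0.249 and 0.239 with 2,4-BPS and 0.317, 0.0936 and 0.0955 with E2. The male BPS libraries were above all other exposed males, but single libraries decided the calls. 2,4-BPS minus BPS (-2.38 ± 0.74) had an adjusted p of 0.0834 without 2,4-BPS replicate 1. E2 minus BPS (-2.41 ± 0.75) had one of 0.0514 without E2 replicate 2. BPSIP minus BPS (-1.99 ± 0.72) had adjusted p values of 0.0889 and 0.061 without BPS replicate 1 or 2, and 0.0789 and 0.14 without BPSIP replicate 2 or 3.

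The bisphenols were given at the same intended dose, so their groups were also compared directly, in 6 pairs per sex together with E2. In daughters 2,4-BPS, the isomer, had 5 members higher and 13 lower than BPS (all genes 10.2% and 9.23%). Pnpla3 (-1.10 ± 0.17), Me1 (-0.70 ± 0.06), Scd1 (-0.66 ± 0.06) and Elovl5 (-0.55 ± 0.05) were lower with the isomer. Gpam did not differ detectably between them (-0.02, 95% interval -0.14 to 0.10), nor did Acaca (-0.09, 95% interval -0.22 to 0.05). BPSIP, the isopropyl ether, had 12 members higher and 16 lower than BPS (all genes 19.2% and 20.1%). The widest were Lpin1 (-2.98 ± 0.08), Scd1 (-1.58 ± 0.06), Pnpla3 (1.29 ± 0.16) and Thrsp (-1.20 ± 0.06). 2,4-BPS had 12 higher and 15 lower than BPSIP (all genes 18.3% and 17.3%).

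E2 stood below each bisphenol in most members in daughters: 5 higher and 20 lower than BPS (all genes 12.2% and 13.4%), 7 and 19 than 2,4-BPS (all genes 13.7% and 16.1%), and 8 and 16 than BPSIP (all genes 18.6% and 19.7%). The members' medians were -0.43, -0.62 and -0.21, with values near 0 over all genes. Thrsp was -4.49 ± 0.06, -4.21 ± 0.06 and -3.29 ± 0.06 in these contrasts, and Insig2 was higher with E2 in all 3. The 3 contrasts share the female E2 libraries and are not independent. A joint test of the 4 exposed female groups passed for 29 of 31 members, beside 56.4% of all genes, and Acsl5 and Mogat1 did not pass.

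In sons, where 30 members were tested among 13289 genes, 2,4-BPS had 10 members higher and 11 lower than BPS (all genes 14.8% and 13.0%). Elovl3 (2.39 ± 0.06) and Scd1 (1.73 ± 0.04) were higher with the isomer, and Thrsp (-2.08 ± 0.06), Srebf1 (-0.70 ± 0.06) and Elovl6 (-0.68 ± 0.09) lower. Acaca did not differ detectably (0.01, 95% interval -0.15 to 0.17). BPSIP had 12 higher and 12 lower than BPS (all genes 18.1% and 17.6%), and 2,4-BPS 14 higher and 13 lower than BPSIP (all genes 16.0% and 15.6%). E2 had 16 higher and 9 lower than BPS (all genes 20.4% and 17.3%), 15 and 5 against 2,4-BPS (all genes 15.1% and 13.4%) and 13 and 9 against BPSIP (all genes 14.4% and 12.2%). The joint test of exposed male groups passed for 29 of 30 members, beside 55.1% of all genes, and Slc25a1 did not pass.

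The same pair of exposures often differed in opposite directions in daughters and sons, over all genes as well as among the members. Except for BPSIP against BPS, the members' share was near or below that of all genes, and the shares were not tested against each other. For BPSIP against BPS, 23 members passed in both sexes and 21 of them had opposite signs, beside 73.3% of the 2497 genes that passed in both. For 2,4-BPS against BPSIP it was 16 of 25 members (72.2% of all such genes) and for E2 against BPSIP 12 of 17 (66.6%). Shares were smaller for E2 against BPS (7 of 21, all genes 36.5%), E2 against 2,4-BPS (7 of 18, 53.1%) and 2,4-BPS against BPS (3 of 13, 41.2%). The 7 for E2 against 2,4-BPS became 4 of 14 without 2,4-BPS replicate 1 or 3 or E2 replicate 2 or 3 of the sons, where Acly, Acacb and Gpam no longer passed in sons. Daughters and sons of a contrast share no libraries.

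Tested directly as the female minus male difference over 24 exposed libraries and 13998 genes, BPSIP minus BPS differed between the sexes in 29 members, 14 higher in daughters and 15 lower (all genes 20.8% and 19.3%). Higher in daughters were Pnpla3 (3.30 ± 0.44), Fasn (1.86 ± 0.11), Srebf1, Elovl6 (1.41 ± 0.12) and Acly (1.32 ± 0.07). Lower were Lpin1 (-4.24 ± 0.12), Scd1 (-2.52 ± 0.08), Lpin2 (-2.31 ± 0.08) and Acacb (-1.45 ± 0.09). For 2,4-BPS minus BPS the counts were 7 higher and 13 lower (all genes 9.56% and 10.2%), with Scd1 at -2.38 ± 0.07, Elovl3 at -1.81 ± 0.11 and Thrsp at 1.80 ± 0.09. For 2,4-BPS minus BPSIP they were 12 and 12 (all genes 17.7% and 19.0%).

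Contrasts with E2 differed mostly one way, but they share the E2 libraries of both sexes and are not independent. For E2 minus BPS 0 members were higher in daughters and 23 lower (all genes 11.5% and 15%), for E2 minus 2,4-BPS 2 and 19 (all genes 13.7% and 15.8%) and for E2 minus BPSIP 6 and 17 (all genes 16.1% and 19.5%). The members' medians were -0.49, -0.62 and -0.55, beside -0.01 to -0.03 over all genes. Elovl3 (-3.05 ± 0.11) and Scd1 (-2.49 ± 0.08) had the widest differences for E2 minus BPS, and Thrsp was -1.31 ± 0.09. The 2 higher in daughters for E2 minus 2,4-BPS, named after their values were seen, were Elovl2 (0.44 ± 0.08) and Me1 (0.26 ± 0.08); without male E2 replicate 2 the adjusted p of Me1 was 0.0841.

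**Figure D4:**
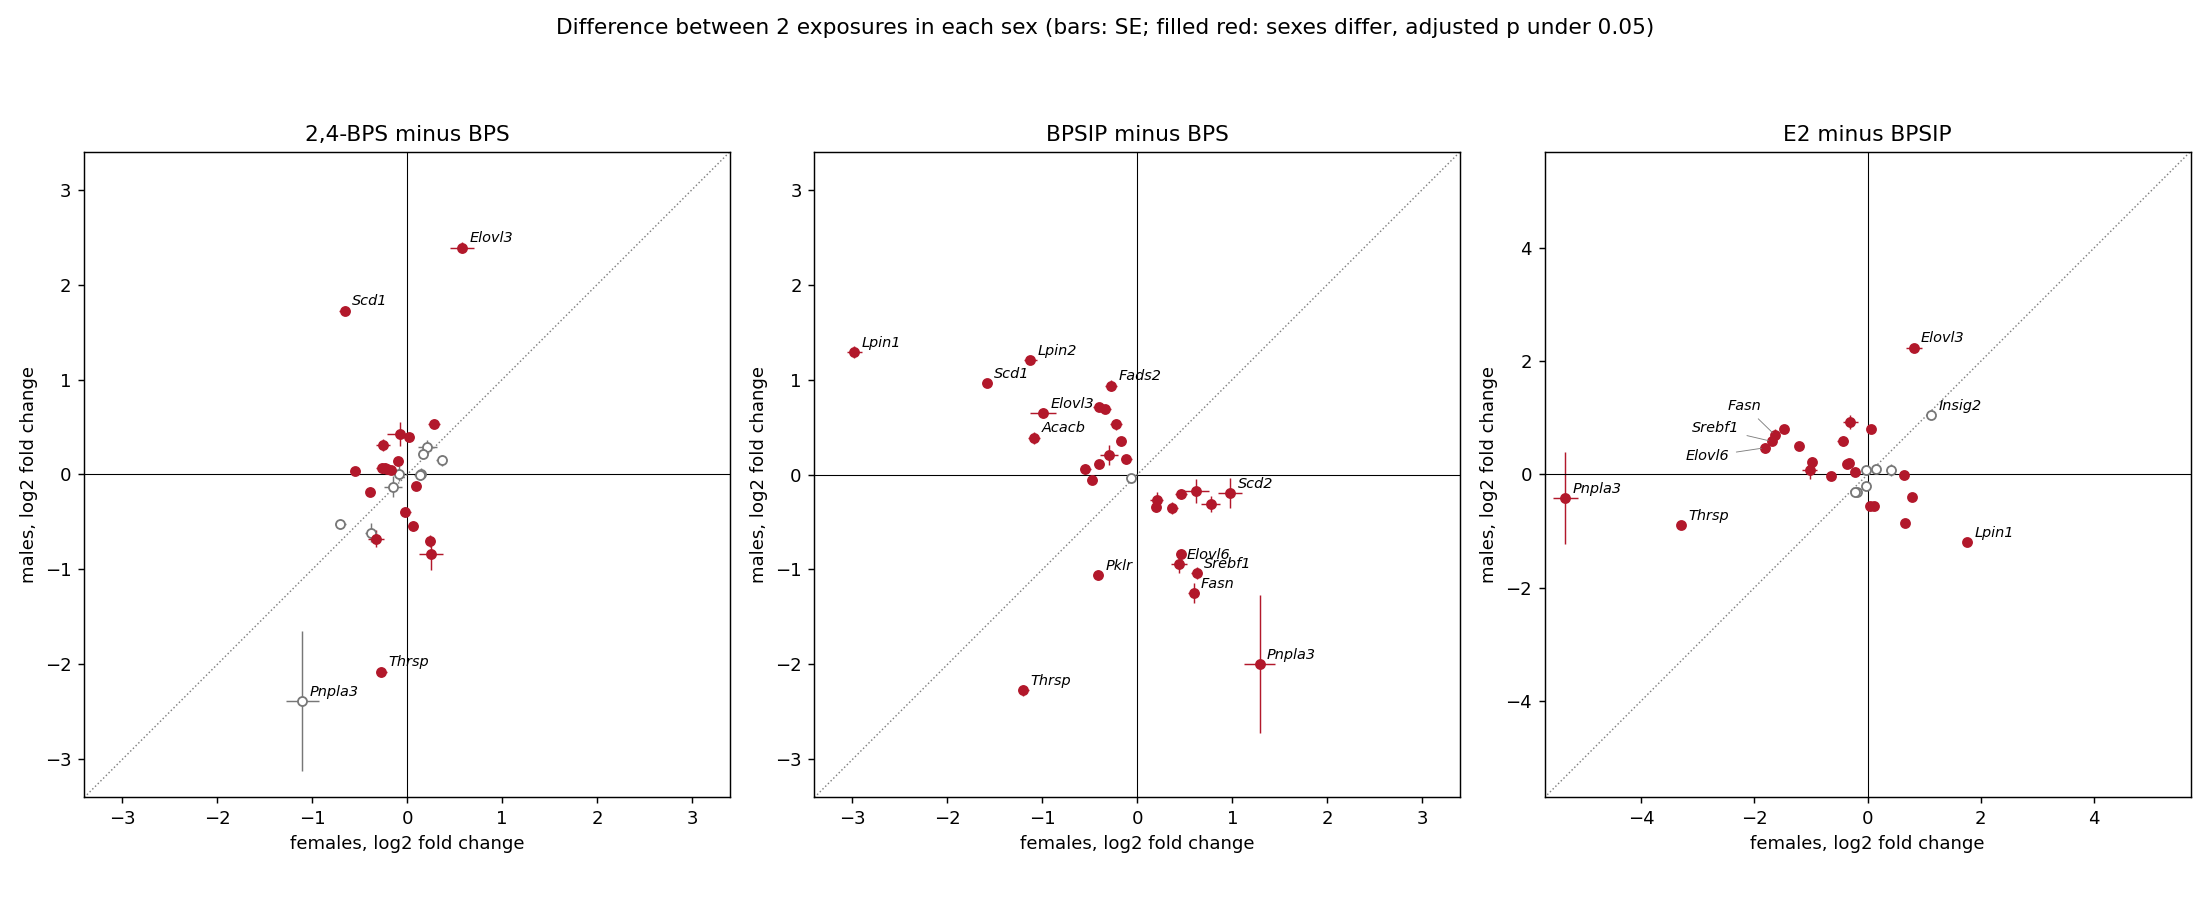
Log2 fold change between 2 exposures in daughters (horizontal axis) and sons (vertical axis) for 30 members, with SE bars, filled red where the female minus male difference had an adjusted p under 0.05 and a dotted line of equality. For BPSIP minus BPS the points fall mainly in the quadrants of opposite sign, with Lpin1 at -2.98 in daughters and 1.29 in sons.

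Averaged over the 4 exposures, 23 of 31 members were higher in daughters and 6 in sons, where 28.6% and 29.5% of all genes were. Pnpla3 (4.25 ± 0.17), Thrsp (1.65 ± 0.03), Fasn (1.53 ± 0.04), Scd1 (1.47 ± 0.03), Elovl6 (1.23 ± 0.04) and Srebf1 (1.21 ± 0.03) were among those higher in daughters. The 6 higher in sons were Elovl3 (-5.30 ± 0.04), Lpin1 (-0.69 ± 0.04), Lpin2 (-0.62 ± 0.03), Insig2 (-0.50 ± 0.03), Dgat1 (-0.29 ± 0.05) and Slc25a1 (-0.14 ± 0.03). Gpam and Agpat2 did not differ detectably. Hepatocyte markers summed to 96220 to 127800 CPM in exposed daughters and 57070 to 78730 CPM in exposed sons, and macrophage markers to 687.8 to 1239 and 363.5 to 497.5 CPM. Their part in the sex difference was not tested.

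**Figure D5:**
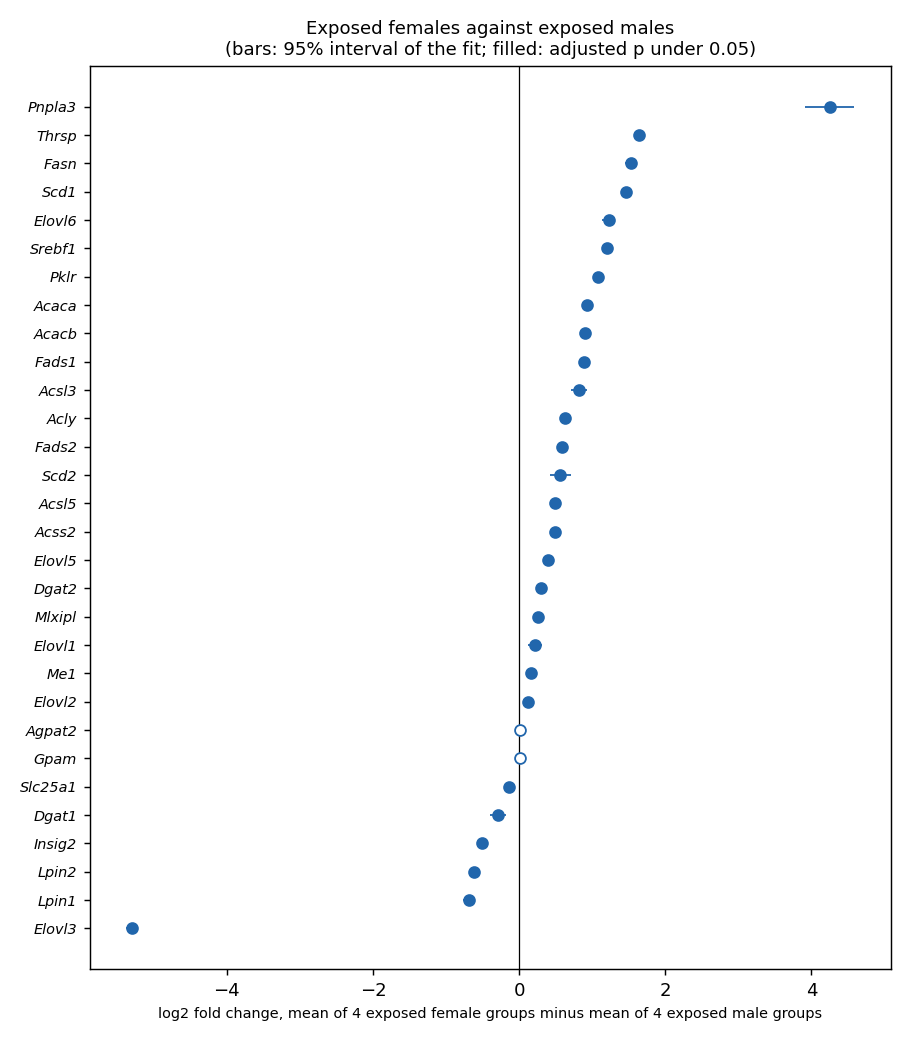
Log2 fold change of 30 members between exposed daughters and exposed sons, as the mean of 4 female groups minus the mean of 4 male groups, with bars for the 95% interval and filled points at an adjusted p under 0.05. Most points lie right of 0, higher in daughters, with Pnpla3 at 4.25 and Elovl3 alone far left at -5.30.

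Other genes of the pathway were read by list. Of 16 further regulators, 5 rose and 4 fell in BPSIP daughters (all genes 19.4% and 19.2%) and 4 rose and 4 fell in E2 daughters (all genes 10.4% and 10.6%). Insig1, a SREBP target and brake, rose with BPSIP (1.95 ± 0.06), and Srebf2, the sterol regulator, rose with BPSIP (0.92 ± 0.06) and E2 (0.72 ± 0.06). Mid1ip1, a relative of Thrsp, fell with E2 (-0.90 ± 0.09). Against the same shares, NADPH and citrate genes gave 3 higher and 1 lower of 7 with BPSIP and 4 lower with E2, and Pgd, of the pentose phosphate pathway, was 0.66 ± 0.07 and -0.27 ± 0.07.

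Further enzymes beside the members changed in smaller numbers. Of 7 partners of the elongation cycle, 1 rose and 3 fell with BPSIP, 1 rose and 1 fell with E2, 1 rose with BPS and 1 fell with 2,4-BPS. Of 10 other glycerolipid enzymes, 1 rose and 3 fell with BPSIP, 2 rose with E2, 1 rose with BPS and 1 rose and 1 fell with 2,4-BPS. Gpat3, a glycerol phosphate acyltransferase, was -0.61 ± 0.10 with BPSIP, and Gpd1, which makes glycerol phosphate, was -0.54 ± 0.05 with 2,4-BPS. Of 7 other acyl-CoA and acetyl-CoA enzymes tested, 1 rose and 4 fell with BPSIP, 2 rose and 1 fell with E2, 2 rose and 3 fell with BPS and 1 rose and 3 fell with 2,4-BPS. The acyl-CoA synthetase Acsl4 rose with all 4, most with BPSIP (1.14 ± 0.07), while Acsl1, the main synthetase of liver, was -0.80 ± 0.05 with BPSIP. The shares over all genes are those of the same comparisons above.

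Cholesterol synthesis, the sister pathway, did not follow fatty acid synthesis in E2 daughters. Of 21 listed genes 14 rose and 2 fell with E2 (all genes 10.4% and 10.6%), while 19 rose and 0 fell with BPSIP (all genes 19.4% and 19.2%), 18 and 0 with BPS (all genes 9.32% and 7.50%) and 16 and 1 with 2,4-BPS (all genes 10.9% and 8.42%). Hmgcs1 was 1.61 ± 0.05 with E2 and 2.70 ± 0.06 with BPSIP. In sons 1 of the 21 was higher and 16 lower with BPSIP than with BPS (all genes 18.1% and 17.6%), and 20 were higher and 0 lower with E2 than with BPS (all genes 20.4% and 17.3%).

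Clock genes and the fasting genes moved with several of these results. In E2 daughters all 11 genes of clock output and repression fell, with Dbp, an output transcription factor, at -3.28 ± 0.08, and their sum was 236.9 to 257.1 CPM against 579.0 to 606.7 CPM in controls. In sons the sum was 300.5 to 310.7 CPM with E2, 356.4 to 386.6 with 2,4-BPS, 465.8 to 483.4 with BPS and 607.7 to 640.7 with BPSIP. Arntl, a clock activator, rose in E2 daughters (2.76 ± 0.14) and BPS daughters (2.02 ± 0.14). Of the 10 fasting genes 8 rose and 0 fell with E2 in daughters (sum 10320 to 10800 CPM), 5 rose and 1 fell with BPS (9461 to 9828 CPM) and 1 rose and 6 fell with 2,4-BPS (7237 to 7621 CPM), against the control sum of 9184 to 9435 CPM. Neither the hour nor the feeding state at collection is given in the sources used here. The part of the clock and fasting genes in the members' changes was not tested.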

How the data were processed

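Liver RNA was sequenced in 30 libraries and, per the submitters' processing notes, the authors used HISAT2, HTSeq, DESeq2 and R 3.2.0. No other version, genome build, annotation or strand setting is given in the sources used here, so overlapping genes on opposite strands may share reads. The deposited count table holds raw counts per gene symbol for 17990 genes. The authors also deposited FPKM, which equal the counts divided by the library total and by 1 fixed length for each gene (largest relative deviation 6.65e-08). FPKM were used only to order genes by level.

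The tests used edgeR 4.0.16 under R 4.3.3 on the counts (TMM factors 0.939 to 1.12, filterByExpr, robust glmQLFit and glmQLFTest, Benjamini-Hochberg adjustment over all genes, threshold 0.05). Daughters (15 libraries, 13874 genes), exposed sons (12 libraries, 13289 genes) and both exposed sexes (24 libraries, 13998 genes) were separate fits, with biological coefficients of variation of 0.0915, 0.0874 and 0.0915. CPM levels come from a fit scaling of all 30 libraries (14131 genes). Intervals of 95% are 1.96 SE either way, a normal approximation. The labels describe separate animals, and libraries of a group differed beyond counting noise (chi-square per degree of freedom 5.446 to 22.42). Whether that excess arose between livers or during library preparation was not tested. Each p value therefore reflects how far 3 libraries per group varied, which need not equal the variation among animals. Libraries labelled male control entered no test. The steps were tested on simulated counts.

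The members and lists were chosen with earlier results of these data known. Values in each library are given for a panel of 12 members and, per sex, for the 8 with the widest range of group means among those of at least 1 CPM. Of other lists, at most the 3 genes with the smallest p in a comparison are named. A list of glycolytic supply is not reported here. Alternatives were RLE factors, library totals alone, a replicate block, no filter, DESeq2 1.42.0, each library left out in turn, and fits of 6 or of 30 libraries. Promoter windows come from RefSeq on GRCm38.p6, matched by symbol, and Scd1, Scd2, Elovl3, Fads1, Dgat1 and Dgat2 had no entry in the table.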

Additional observations from a re-analysis of the deposited data

Results flagged for a closer look

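Differences between exposures that were unlike in daughters and sons stand out, each by a test of the female minus male difference itself (edgeR quasi-likelihood, adjusted over all genes). Of 31 members, 20 differed for 2,4-BPS minus BPS (all genes 9.56% higher in daughters and 10.2% lower), 29 for BPSIP minus BPS (20.8% and 19.3%) and 24 for 2,4-BPS minus BPSIP (17.7% and 19.0%). With E2, 23 differed for E2 minus BPS (11.5% and 15%), 21 for E2 minus 2,4-BPS (13.7% and 15.8%) and 23 for E2 minus BPSIP (16.1% and 19.5%).

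In 13 cases a member passed in each sex with opposite signs and the sexes were at least 4-fold apart. The same count over all genes was not made. Opposite signs alone, by pair, were found in 36.5% to 73.3% of all genes that passed in both sexes. Scd1 gave a female minus male log2 difference of -2.38 for 2,4-BPS minus BPS, -2.52 for BPSIP minus BPS and -2.49 for E2 minus BPS. Lpin1 gave -4.24 for BPSIP minus BPS, 3.68 for 2,4-BPS minus BPSIP and 2.94 for E2 minus BPSIP. Lpin2 gave -2.31 for BPSIP minus BPS and 2.06 for 2,4-BPS minus BPSIP. Pnpla3 gave 3.30 for BPSIP minus BPS, with male levels of about 1 CPM or less. Its male call was lost without BPS replicate 1 or 2 or BPSIP replicate 2 or 3. For E2 minus BPSIP, Acly gave -2.29, Fasn -2.35, Elovl6 -2.30 and Srebf1 -2.29. The cases of Scd1 share the BPS libraries of both sexes, and all other cases share the BPSIP libraries, so they are not independent. The fasting response and clock genes differed between the same groups, and their part was not tested. Groups of 3 were too small for a test of single outlying libraries.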

How the results depend on the processing

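The count of members that passed stayed within 1.5 times its value in all 25 comparisons under every alternative run. The widest movement was for BPS against control in daughters, 12 members, with 8 to 13 on leaving out a library and 18 at most. For 2,4-BPS minus BPS between the sexes, 20 members, the range was 15 to 21. Of the values for single members, 11265 kept their side of the threshold, 329 no longer passed and 87 newly passed. Direction was compared only where a value passed in the main fit or the alternative, and not in joint tests. In that check 1 sign changed, that of Slc25a1. Its female minus male difference for BPSIP minus BPS was -0.00 and became 0.18 with library totals alone. That setting moved the median of all genes in that contrast by 0.187. The other shifts over 0.1 under library totals alone were 0.138 (BPSIP minus BPS), -0.149 (2,4-BPS minus BPSIP) and -0.120 (E2 minus BPSIP) in daughters, -0.115 (E2 minus BPS) in sons, and -0.125 (2,4-BPS minus BPSIP) and 0.128 (E2 minus BPS) between the sexes. With the replicate number as a block, 19 members passed for 2,4-BPS, 26 for BPSIP, 11 for BPS and 21 for E2 against control in daughters. The number did not pair libraries: deviations of same-numbered libraries had a median correlation of -0.0264 in daughters and 0.00238 in sons, and 1 of 15 female and 6 of 12 male libraries correlated best with their own number. Depth limits Pnpla3 in sons and Mogat1, at or below about 1 CPM.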

Other observations

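The 3 libraries labelled male control belong to no comparison above, and their member levels are given as values. Their mean lay above the range of the 4 exposed male groups for 17 members, below it for 7 and within it for 7. The same count over all genes was not made, so it is not read as a trait of the members. These libraries also held 2551 to 2923 CPM of female-specific liver genes, against 2.04 to 10.4 CPM in exposed males. Lpin2 held 579.8, 563 and 539 CPM, more than any library of the other 9 groups, and Acss2 held 150.0, 152 and 166 CPM. Elovl3, the member with the widest difference in favour of exposed sons, held 97.9, 88.8 and 79.7 CPM. Elovl5 held 259, 249.6 and 271 CPM, below every library of the other groups. Srebf1 held 89.0, 92.8 and 109 CPM, Thrsp 705, 683 and 833 CPM and Pnpla3 2.45, 3.39 and 4.15 CPM.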
